A study of Mus musculus with 6 samples.

Results

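A set of 971 regions that lay between genes, away from gene ends but no farther than 50 kb, and that carried a FLAG peak in each of 3 Onecut3 ChIP-Seq libraries is described here. The 3 deposited peak lists were merged where peaks overlapped by at least 1 bp, which gave 50844 regions. Of these, 5099 on chromosomes 1 to 19 and X had a peak in all 3 lists (shared regions), and 971 of them (19%) had a midpoint outside every protein-coding gene and more than 3 kb but at most 50 kb from the nearest gene end. The same place held 10235 of all 50748 merged regions on these chromosomes (20.2%). The other shared regions comprised 928 at gene ends, 2028 inside genes and 1172 beyond 50 kb. The regions were selected on the authors' peak calls in the same 3 lists, so their fold, q-values, widths and overlap are given as a description without a test.

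The peaks come from FLAG ChIP-Seq of mouse embryonic fibroblasts (MEFs), primary connective tissue cells grown from embryos, from p53 KO C57BL/6 mice. The Onecut3-OE cells carried a FLAG-tagged Onecut3 in a retroviral Tet-One vector and received doxycycline at 100 ng/mL, and the series holds 3 FLAG libraries, 1 input and 1 IgG library of these cells and, as Control, 1 FLAG library without doxycycline. Only the 3 Onecut3-OE FLAG lists, replicates 1 to 3, were analysed here. No source states that the replicates were separate cultures, every group lacked p53, and the binding described is that of an induced, tagged transgene in fibroblasts. The lists hold no expression values, so the cell type could not be checked against markers. Sequencing depth is not given by the lists. The list of replicate 2 held 12856 peaks, against 31600 in replicate 1 and 24822 in replicate 3, and its fold and p-values could not be solved for whole-number pileups as in the other lists. Only whole-number pileups were tried, so a list with scaled pileups would also fail, and why this list failed was not tested. A difference in fold between replicate 2 and the others cannot be told apart from a difference in how the lists were made.

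ONECUT factors are transcription factors that bind DNA through a cut domain and a homeodomain, and they are known for their roles in liver, pancreas and neurons. ONECUT1, also called HNF6, is the best studied member in liver. Regions between genes can hold enhancers, which are bound by transcription factors and can act on genes at a distance, so the nearest gene of a region need not be its target.

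The word intergenic applies here to protein-coding genes only. Of the 971 midpoints, 188 (19.4%, Wilson 95% interval 17.0% to 22.0%) lay inside an annotated gene that is not protein-coding, and 166 of those were in long non-coding RNA genes. The share was 16.7% over all 10235 merged regions of the same distance class, whether in 1, 2 or 3 lists.

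Starts of long non-coding RNA genes allowed a direct view of sequence under 6 of the regions, because their RefSeq promoter windows (GRCm38.p6, 250 bases before to 50 bases after the annotated start) held the summits of all 3 replicates. The windows were searched on both strands for ATCAAT and for ATCGAT, short forms of the ONECUT recognition sequence that do not contain each other. The first of them appears as ATTGAT where it lies on the opposite strand, while ATCGAT reads the same on both. The 4 windows with a match are shown because they give the bases beneath the peaks. Capitals mark the matches, and each line runs 5′ to 3′ along the strand of the named gene.
Gm40716, chr10:80475331-80475630, - strand, region near Onecut3: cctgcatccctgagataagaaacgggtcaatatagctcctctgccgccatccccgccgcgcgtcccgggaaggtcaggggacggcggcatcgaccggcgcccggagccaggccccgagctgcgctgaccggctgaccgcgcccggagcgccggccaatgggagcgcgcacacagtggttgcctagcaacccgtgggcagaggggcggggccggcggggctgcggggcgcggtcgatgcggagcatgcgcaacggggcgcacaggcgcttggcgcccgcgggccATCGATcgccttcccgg
Gm33555, chr7:130309933-130310232, - strand, region near Fgfr2: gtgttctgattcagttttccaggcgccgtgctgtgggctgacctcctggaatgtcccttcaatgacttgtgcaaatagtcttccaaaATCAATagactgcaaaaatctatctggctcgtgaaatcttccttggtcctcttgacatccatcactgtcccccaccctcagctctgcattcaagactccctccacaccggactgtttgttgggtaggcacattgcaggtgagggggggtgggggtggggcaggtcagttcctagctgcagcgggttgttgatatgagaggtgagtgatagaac
Gm34755, chr6:128798459-128798758, + strand, region near Klrb1c: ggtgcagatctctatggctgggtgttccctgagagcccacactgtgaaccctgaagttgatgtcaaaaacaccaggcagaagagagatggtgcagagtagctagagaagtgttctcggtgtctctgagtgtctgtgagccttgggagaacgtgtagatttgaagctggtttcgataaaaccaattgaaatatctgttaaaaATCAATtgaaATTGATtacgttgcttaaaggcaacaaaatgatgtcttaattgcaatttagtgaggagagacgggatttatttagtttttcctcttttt
Gm33009, chr4:49486057-49486356, + strand, region near Baat: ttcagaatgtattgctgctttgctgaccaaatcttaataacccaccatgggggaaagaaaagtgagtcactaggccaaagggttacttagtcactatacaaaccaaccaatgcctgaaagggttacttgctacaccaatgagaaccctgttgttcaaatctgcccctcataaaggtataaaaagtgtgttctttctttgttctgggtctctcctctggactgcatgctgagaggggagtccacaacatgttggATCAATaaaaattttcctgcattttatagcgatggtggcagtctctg

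At least 1 of the motifs was found in 4 of the 6 windows (66.7%, Wilson 95% interval 30.0% to 90.3%). In the 216 windows that held all 3 summits of other shared regions, 121 (56%) had a match, and the share was 8.38% in all 32585 promoter windows on these chromosomes. The 216 windows belonged to 191 regions. Most of the windows, 194, were at gene ends, where 53.1% had a match. The share was 80% of 15 windows inside genes and 85.7% of 7 windows beyond 50 kb. Windows with a shared peak summit held these letters more often than promoter windows at large. The interval of the 6 windows is wide and covers the shares at gene ends, inside genes and beyond 50 kb alike. No likeness or difference between places is read from it. The remaining windows, of Gm32789 near Slc38a4 and of 4930552P12Rik near Tcf7l2, held no match within their 300 bases. A match is a description of the sequence and not a measured binding site.

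The positions of the matches were set against the peak summits, counting bases from the 5′ end of each window. In the Gm33009 window, ATCAAT occupied bases 254 to 259 and the summits were at bases 268, 266 and 268 in replicates 1, 2 and 3, so that all were 7 to 9 bases from the motif. In the Gm33555 window, ATCAAT was at bases 88 to 93 and the summits were at bases 74, 96 and 67. In both windows the summits of all lists fell within 21 bases of the motif.

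The Gm34755 window held ATCAAT at bases 202 to 207 and ATTGAT at bases 212 to 217, the same motif on opposite strands, with summits at bases 256, 67 and 221. In the Gm40716 window, ATCGAT was at bases 284 to 289 and the summits were at bases 261, 182 and 235. Here the summits of the lists were spread more widely, and in both windows that of replicate 2 lay farthest from the motif. Over the 4 windows, the median distance between a motif and the middle summit was 11.5 bases, against 12 bases in the 121 windows of other shared regions. Matches to other motifs were also counted in the 6 windows. TGANTCA, the AP-1 site, was found in 2 (33.3%, against 5.09% of the windows of other shared regions and 7.85% of all windows), and CATTCC, the TEAD site, in 1 (16.7%, against 13% and 14.6%). CCAAT was found in 3 (50%, against 69.9% of the windows of other shared regions and 37.6% of all windows), and GGGCGG in 1 (16.7%, against 64.8% and 35.9%). With 6 windows, no order is read from these shares.

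The match share was also read against the number of lists with a peak. Among windows that held all summits of a merged region at the same distance from genes, a motif was present in 4 of 6 with peaks in 3 lists, in 7 of 9 (77.8%) with peaks in 2 lists and in 9 of 28 (32.1%) with a peak in 1 list. Over regions in every place, the shares were 56.3% of 222, 41.1% of 185 and 21% of 453 windows for 3, 2 and 1 lists. The larger set thus had a higher share with each further list, and in the distance class described here the regions of 1 list had the lowest share.

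The strength of the 971 regions was read from the fold, the ratio of ChIP pileup to expected background at the summit that the MACS2 peak caller writes with 1 added to each. Their median fold was 3.94, 4.18 and 3.99 in replicates 1, 2 and 3, a mean of 4.03 ± 0.128 (SD, n = 3). The other 4128 shared regions had medians of 3.94, 4.18 and 4.05. Shared regions at gene ends had medians of 4.24, 4.46 and 4.27. Equal medians recur between the places in replicates 1 and 2, and none of these differences was tested. Merged regions of the same distance class with a peak in 1 list had lower medians, 2.98, 3.35 and 3.12 in the lists of replicates 1, 2 and 3.

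**Figure D1:**
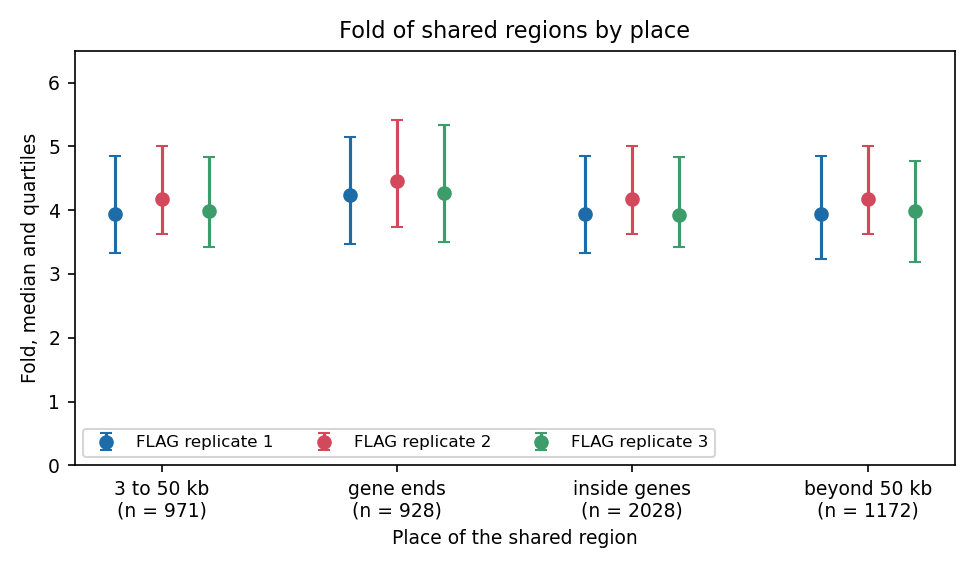
Median fold over the expected background (vertical axis) with quartiles (bars) of shared regions in 4 places, for each FLAG replicate. The medians of the 971 regions 3 to 50 kb from a gene end, 3.94, 4.18 and 3.99, lie close to those inside genes and beyond 50 kb, and below those at gene ends.

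A q-value of at most 0.05 in every list was reached by 564 of the 971 regions (58.1%, Wilson 95% interval 55.0% to 61.2%), against 57% of all 5099 shared regions. The share was 66.3% at gene ends, 56.3% inside genes and 50.0% beyond 50 kb, and the regions that did not reach it had a larger q-value in at least 1 list. The lowest -log10 p among the deposited peaks was 2.00, 2.01 and 2.02 in replicates 1, 2 and 3. The lists thus also held peaks with a q-value above 0.05. A fold of at least 5 in all lists was seen for 81 regions (8.34%), against 8.86% of all shared regions.

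The regions were short. Their median width was 392 bp (range 217 to 1188 bp), 10 were at least 1 kb wide, and 949 had a single peak in each list. The summits of the 3 lists were a median of 67 bp apart at their extremes, and they fell within 50 bp in 357 regions (36.8%) and within 100 bp in 676 (69.6%). The order of the regions by fold was partly shared among replicates, with Spearman correlations across regions of 0.455 for replicates 1 and 2, 0.466 for 1 and 3, and 0.480 for 2 and 3. All were selected in the same lists and set against the same input by the peak names, and regions are not independent replicates.

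The regions were ranked in each list by fold, and the 20 with the best mean of these ranks were examined one by one. The strongest, 414 bp at chr19:10496343-10496756, lay 3.96 kb beyond the 3′ end of Sdhaf2, which encodes an assembly factor of succinate dehydrogenase, the enzyme shared by the citric acid cycle and the respiratory chain. Its fold was 12.8, 13.5 and 11.6 in replicates 1, 2 and 3, the highest of the 971 in each list. The summits of the 3 lists were within 35 bp. It was followed by a region 27.1 kb beyond the 3′ end of Pard3, a scaffold of cell polarity, with a fold of 9.69, 9.74 and 8.28, lying in the non-coding gene Gm32478. Both regions were lowest in replicate 3.

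A region on the 5′ side of Rnf24, which encodes a RING finger protein, had a fold of 9.93, 9.18 and 8.28 at 19.8 kb from the gene. The fourth of the 20 was the region at chr10:80475194-80475727, 19.4 kb from Onecut3 itself, with a fold of 8.43, 8.35 and 8.59. Replicates were nearly level there, and the Gm40716 window printed above lies within it. As Onecut3 was the induced transgene, its own locus is named here with the same measure as every other region, and no peak list of the Control was analysed here.

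Regions near Myc and Nefl came next to one another in rank. The region 49.3 kb from Myc, the growth-promoting transcription factor, at chr15:62039400-62039963 inside the non-coding gene Pvt1, had a fold of 7.87, 7.79 and 7.64. A region 42.8 kb from Nefl, which encodes the light chain of neurofilaments, had a fold of 7.87, 8.35 and 7.32. The 3 lists differed little in either of them, and both were near the upper limit of distance.

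Other regions of the 20 varied more among the lists. The region 22.6 kb from Slain2, encoding a protein of growing microtubule ends, had a fold of 10.6, 7.24 and 9.55, and was lowest in replicate 2. The region 30.5 kb from Atp8a2, a phospholipid flippase, had 7.27, 9.46 and 8.60, and was lowest in replicate 1. The region 44.8 kb from Gm38821 had 7.11, 7.35 and 10.4, with the high value in replicate 3 only. Differences of this size came with a summit pileup of 23 to 34 fragments in replicates 1 and 3, where it could be recovered.

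Among the rest of the 20, the region 24.0 kb from Med13, a subunit of the Mediator kinase module, had a fold of 6.96, 8.90 and 8.28. That 13.7 kb from Smndc1, a splicing factor, had 6.93, 7.58 and 8.38, and that 4.45 kb from Socs5, a suppressor of cytokine signalling, had 9.09, 6.86 and 7.05. The region at 3.15 kb from Abcc12, an ABC transporter, had 9.08, 7.79 and 7.01. In each list, all of these had a fold above the upper quartile, which follows largely from their choice by rank of the same folds. The others were near Ifnlr1, the receptor of interferon lambda, at 7.57, 6.96 and 7.01, and near Pxt1, Mrps23, Psd2, Suco and Irf2bp2. A region 18.4 kb from Gm21083 had 7.63, 7.28 and 6.73 over a background of 9.09 and 8.37 fragments in replicates 1 and 3, and whether reads from other copies of its sequence were placed there was not tested.

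**Figure D2:**
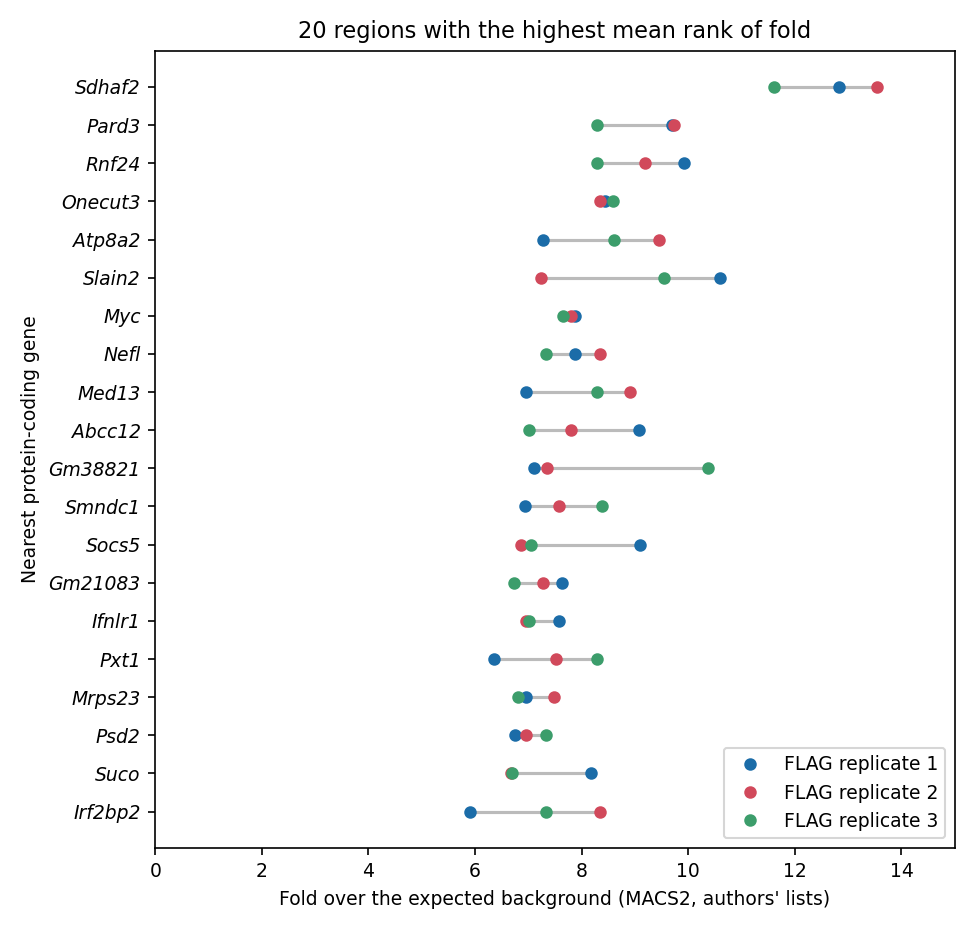
Fold over the expected background (horizontal axis) in the lists of FLAG replicates 1, 2 and 3 (colours) for the 20 best ranked regions, named by the nearest protein-coding gene. The region near Sdhaf2 lies apart at 12.8, 13.5 and 11.6, and the 3 lists overlap most closely near Onecut3 and Myc.

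Regions near genes of chosen pathways were counted next, with 1631 of 21627 protein-coding genes (7.54%) having at least 1 of the 971 regions within 50 kb as the background. Of these genes, 158 had at least 2 such regions and 22 at least 3. Gene lists of few members are described by their counts only, and 1 region can serve several neighbouring genes.

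Of the 4 genes of the chromosomal passenger complex, the mitotic kinase complex that corrects chromosome attachment and is needed for cytokinesis, 2 had such a region. The region 8.96 kb from Incenp, the scaffold subunit, at chr19:9908117-9908771, was number 52 of the 971 by rank, with a fold of 6.64, 5.11 and 7.0. It was lowest in replicate 2, and the recovered summit pileup was 23 fragments in both replicates 1 and 3. The region 33.3 kb from Birc5, which encodes the survivin subunit, had 6.06, 5.99 and 3.74 and was number 178, with replicate 3 the lowest, and its nearest gene was Tha1. For the kinase gene Aurkb and for Cdca8, encoding borealin, the nearest of the 971 regions was 1225 kb and 79.1 kb away. Regions inside genes or within 3 kb of a gene end are left out by the rule. These distances thus do not describe binding within or at the ends of the genes.

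Of the list of 54 mitosis and chromosome segregation genes, 4 (7.41%) had a region within 50 kb, close to the background of 7.54%. The best ranked was 21.3 kb from Smc3, a cohesin subunit, with a fold of 4.73, 5.69 and 5.91. The others were near the kinesin genes Kif20b and Kif18a and near Cep55, a protein of the abscission site. The regions near Smc3, Kif20b and Cep55 lay on chromosome 19, as did that near Incenp. On that chromosome 13.1% of merged regions of the class had a peak in all 3 lists, against 9.49% overall. The local background in replicate 1 was above its minimum at 90.7% of the shared regions there, against 50.7% over all 971. Near Kif18a the q-value was at most 0.05 in replicate 3 only. Of 28 genes of DNA replication and the G1/S transition, only Ccne2, encoding cyclin E2, had one (3.57%), with 5.45, 6.12 and 2.87. That region lay 42.6 kb from Ccne2, with Trp53inp1 as its nearest gene, and its q-value in replicate 3 was 0.404. Regions were counted in all gene lists whatever their q-values. Among list genes named below, the q-value also exceeded 0.05 in a replicate near Col1a2, Smad6, Msx1, Map2, Lyz2 and Hba-a1.

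A larger share was counted for AP-1 and immediate early genes, with 5 of 22 (22.7%), among them Myc, Ier3, Fosl2 and Klf4. The region 6.87 kb from Ier3, a stress-induced early gene, had 6.98, 6.04 and 4.99, and that 3.11 kb from Fosl2, an AP-1 subunit, had 6.76, 4.20 and 5.38. The region 46.5 kb from Klf4, a zinc finger transcription factor, had 5.75, 4.18 and 4.46. All of these, and the region near Myc, were highest in replicate 1.

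Fibroblast and extracellular matrix genes had such regions in 7 of 28 (25%), among them Lox, Postn, Col6a3 and Col1a2. The region 32.2 kb from Lox, which encodes the enzyme that crosslinks collagen, had 6.17, 6.96 and 4.84, and that 4.85 kb from Postn, the matrix protein periostin, had 5.75, 4.35 and 5.98. The region 12.6 kb from Col6a3, a collagen VI chain, had 6.04, 4.06 and 5.06. Replicate 2 was the highest of the lists at Lox and the lowest at Postn and Col6a3.

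For TGF-β and BMP signalling the count was 5 of 24 (20.8%), among them Id1, Tgfb2, Smad5 and Smad6. The region 4.57 kb from Id1, an inhibitor of basic helix-loop-helix factors, had a fold of 4.53, 5.60 and 5.70. That 3.17 kb from Tgfb2, a TGF-β ligand, had 3.94, 5.29 and 4.14. In the Hippo pathway list, Tead4 and Amotl2 had a region (2 of 17, 11.8%), with 5.75, 4.18 and 3.50 near Tead4, a DNA-binding partner of YAP. Identical values recur between regions, as for replicates 1 and 2 near Klf4 and Tead4. The pileups recovered in replicates 1 and 3 are whole numbers of few fragments.

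Homeobox and fibroblast developmental factors had regions in 5 of 24 genes (20.8%), among them Onecut3, Cux1 and Msx1. Near Cux1, another gene of the cut class, the fold was 4.84, 4.18 and 4.14. Of the tissues in which ONECUT factors are known, hepatocyte genes had 3 of 19 (15.8%), among them Apob and Foxa2, and neuronal genes 2 of 20 (10%, Nefl and Map2). Near Foxa2, a forkhead factor of endoderm, the values were 6.47, 3.09 and 4.83.

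Lists of other cell types and of housekeeping genes gave shares both above and below the background of 7.54%. Blood cell genes had regions in 5 of 20 (25%), among them Cd79a, Itgam, Lyz2 and Hba-a1, and highly transcribed housekeeping genes in 5 of 28 (17.9%). Actin cytoskeleton and focal adhesion genes had 1 of 24 (4.17%, Actg1) and olfactory receptor genes 24 of 1110 (2.16%). The matrix list and the blood cell list, at 25% each, were thus alike in share, and none of these shares was tested.

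Distance from genes was described over the 971 regions. The median distance to the nearest gene end was 17.0 kb (quartiles 8.25 and 29.5 kb), against 17.3 kb for all merged regions of the class. From 3 to 10 kb there were 291 regions, from 10 to 20 kb 278, from 20 to 30 kb 165, from 30 to 40 kb 116 and from 40 to 50 kb 121. The share of merged regions with a peak in all 3 lists was 9.57%, 10.2%, 8.96%, 8.09% and 10.2% over the same steps, so that it had no single direction with distance. The share over the whole class was 9.49%, against 15.6% at gene ends, 10.3% inside genes and 7.92% beyond 50 kb.

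**Figure D3:**
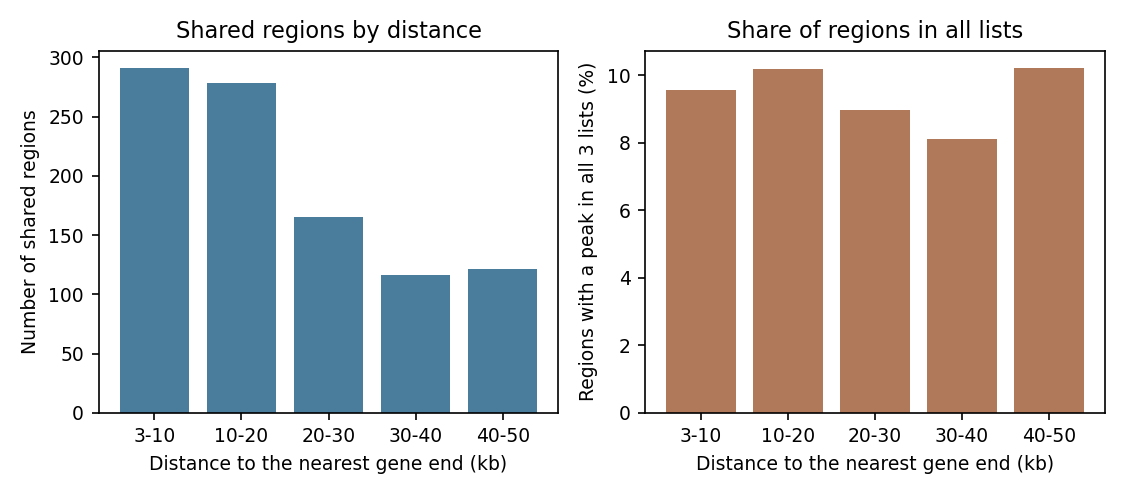
Left, number of shared regions (vertical axis) by distance to the nearest gene end in kb, from 291 at 3 to 10 kb to 121 at 40 to 50 kb. Right, the percent of all merged regions in each step that had a peak in all 3 lists, which stayed between 8.09% and 10.2%.

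A gene lay within 50 kb on both sides of 385 regions (39.6%), against 37.0% of all merged regions of the class, and for 91 regions (9.37%) the gene on the far side was over 500 kb away. Of the 748 regions whose nearest gene had a strand in the promoter table, 403 were on its 5′ side (53.9%, Wilson 95% interval 50.3% to 57.4%) and 345 on its 3′ side. The 5′ share was 54.4% for all merged regions of the class. The regions thus lay before and after genes about as all called regions at this distance did.

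The limits of distance cut through a continuous range. Just inside 3 kb was a region 3011 bp from Baat, encoding a bile acid conjugating enzyme, with a fold of 3.33, 3.07 and 2.87. Just outside were regions 2991 bp from Cerk with 3.56, 4.34 and 4.34 and 2967 bp from Lax1 with 6.66, 6.12 and 5.73. At the far limit, a region 49.98 kb from Dnah5 was kept and one 50.119 kb from Tbc1d21 was not.

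Among the 188 regions inside non-coding genes, the best ranked were in Gm32478, Pvt1, Gm52127, Gm38937 and Gm30510. A pair of abundant nuclear RNAs, chosen after their values were seen, also held regions. The region in Malat1 had a fold of 3.45, 6.76 and 5.98 and was number 188, and that in Neat1 had 4.08, 4.56 and 3.41 and was number 523. In Malat1 the list of replicate 1 was the lowest, and in Neat1 that of replicate 3.

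By chromosome, the 971 regions were most numerous on chromosome 6, with 92, and chromosome 19, with 86. The share of merged regions of the class with a peak in all 3 lists was highest on chromosomes 11 (13.3%, 67 regions) and 19 (13.1%) and lowest on X (2.73%, 13 of 477), against 9.49% overall. On chromosome 19 the local background of the caller was above its genome-wide minimum at 90.7% of these regions in replicate 1 and 88.4% in replicate 3, against 50.7% and 49.3% over all 971. The part of this background in the count of regions on chromosome 19 was not tested.

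**Figure D4:**
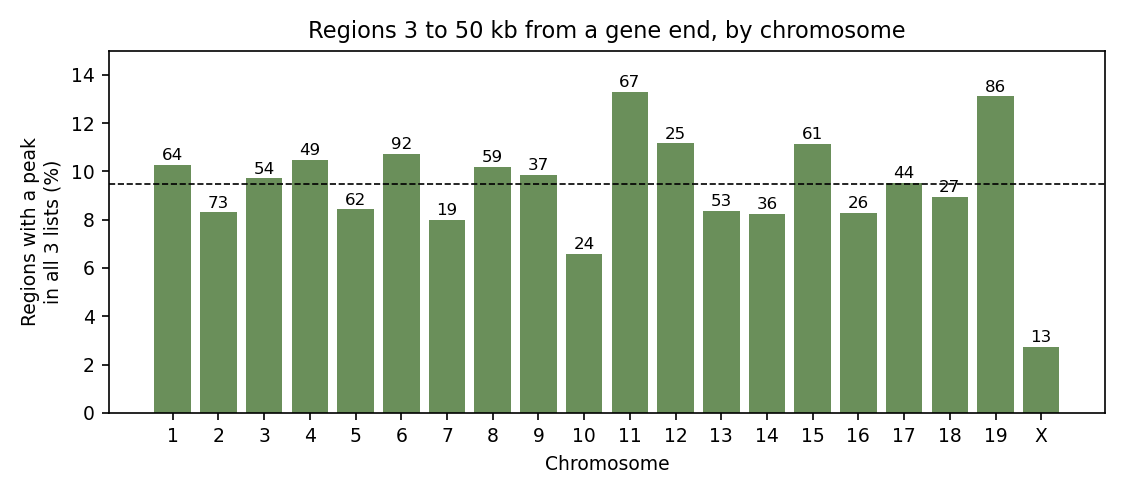
Percent of merged regions 3 to 50 kb from a gene end that had a peak in all 3 lists (vertical axis), by chromosome, with the number of such regions above each bar and the overall share of 9.49% as a dashed line. Chromosomes 11 and 19 are highest, at 13.3% and 13.1%, and X is lowest, at 2.73%.

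The number of fragments behind a fold could be recovered for replicates 1 and 3. The median summit pileup of the 971 regions was 14 fragments in replicate 1 and 13 in replicate 3, over a minimum background of 2.30 and 2.14 fragments. A typical fold near 4 thus rested on few fragments. At the other extreme, the region near Mrgprd had 353 and 343 fragments in replicates 1 and 3 over a background of 202 and 181, and its fold was 1.75, 1.48 and 1.89. It and 5 more regions, near Gm45871, Tmem196 and Gm14496 and a pair near Gm39469, had folds of 1.34 to 1.89 over backgrounds of 94.5 to 202 fragments, and they were among the lowest of the 971 by rank. Whether reads from other copies of these sequences were placed there was not tested.

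**Figure D5:**
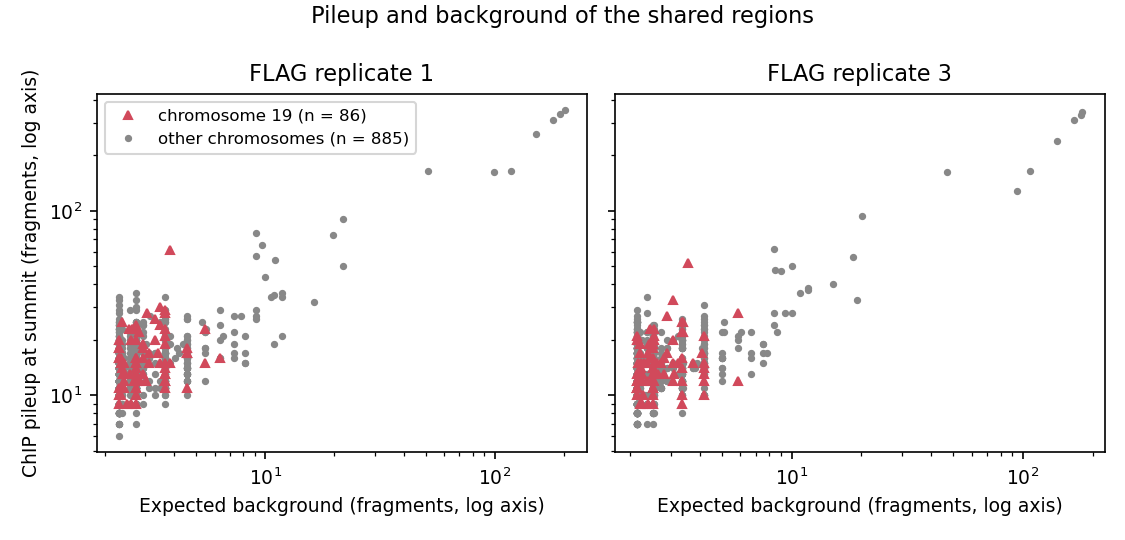
ChIP pileup at the summit (vertical log axis, fragments) against the expected background (horizontal log axis, fragments) of the 971 regions in FLAG replicates 1 and 3, with chromosome 19 as triangles. Most regions lie near the minimum background of 2.30 and 2.14 fragments, and a few reach backgrounds of 94.5 to 202 fragments.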

How the data were processed

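FLAG peaks of 3 Onecut3-OE libraries were analysed. GRCm38 is the build in the submitters' processing notes, which also list, without roles, deepTools 3.3.2, MACS2 2.1.0 and Bowtie2 2.2.6. Peak names point to calling per sample against 1 input. The peak lists deposited by the authors give q-values and p-values as -log10, a fold (a ratio with a pseudocount of 1) and a score, which is 10 times -log10 p cut to a whole number. No column belongs to an unknown sample.

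Lists were merged and placed against RefSeq gene spans of GRCm38 with pandas 2.3.3 and numpy 2.4.6 in Python 3.11.15, and scipy 1.17.1 gave intervals. Plots were drawn in matplotlib 3.10.9. The pileup and Poisson background were solved from the authors' fold and p within 0.001 in -log10 p, which succeeded for 100% of the peaks of replicates 1 and 3. In replicate 2 it succeeded for 0.179%, so no pileup is given there. The solver, the merging and the placing of regions were tested on simulated data, and the motif search was not. Regions were ranked by the mean of their ranks of fold in the 3 lists. Named are the best 20, the edges of the distance rule, up to 4 best ranked genes per list, the 4 chromosomal passenger genes, the genes with the most regions and up to 5 non-coding genes. Strand was taken from RefSeq promoter windows, which matched 17273 of 21627 protein-coding genes. Intervals are 95% Wilson intervals and cover counting error only.

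Regions and gene lists were chosen with earlier results of these data known. Motif searches were planned on the genome, and were run on RefSeq promoter windows instead. The count of motifs by number of lists, the side of genes and the windows were chosen after the data were seen. Alternatives were a stricter q or fold, overlap, summit distance, region edge, genes of every type, autosomes only and leaving out each replicate. The Control, IgG and input libraries were not analysed here, and a few genes that the naming rule selects are not reported here.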

Additional observations from a re-analysis of the deposited data

How the results depend on the processing

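Of 97 alternative values, 55 were counted as staying within the spread of the value reported and 42 as moving beyond it. The number of regions has no spread, so it was judged by a fixed ratio to the reported number. By that looser rule, 1282 regions without replicate 1 and 1409 without replicate 3, against 971, were counted as staying. With only peaks of -log10 q of at least 5, there were 93 regions, with a median fold of 6.05, 100% at a q of at most 0.05, a summit spread of 40 bp, 24.7% inside non-coding genes and 0.795% of genes with a region. With only folds of at least 5, there were 80 regions, 17.7% of the shared, with a median fold of 6.27, 100% at that q, a median distance of 18.4 kb, a summit spread of 47 bp, 25% inside non-coding genes and 0.694% of genes. With only q of at most 0.05, there were 564 regions, with a fold of 4.54, 100% at that q by construction, a spread of 57 bp and 4.68% of genes. The motif share under these 3 filters was 100%, but in 1, 1 and 2 windows. An overlap of at least 50% of both peaks gave 6.97% of genes. Summits within 100 bp gave a fold of 4.19, 63.0% at that q, a spread of 57 bp and 6.38% of genes. Placing regions against genes of every type gave 23.1% of the shared, 52.6% at that q, a distance of 14.3 kb and 5.51% of genes. Stricter peaks and a nearer summit limit leave fewer regions by construction, and other causes were not tested.

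Leaving out each replicate, with peaks in both remaining lists required, gave 1282 to 1839 regions (the highest without replicate 2), 19.2% to 19.5% of the shared, a median fold of 3.66 to 3.92, 46.4% to 65.1% at that q, a distance of 16.7 to 17.1 kb, a summit spread of 40 to 45 bp, 18.4% to 19.1% inside non-coding genes, 9.46% to 13.4% of genes (13.4% without replicate 2) and a motif share of 62.5% to 70%. No paired analysis was possible because no groups were compared. The motif share with a genome was not run. The lists give no depth, and median pileups of 14 and 13 fragments limit the precision of each fold.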

Other observations

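Several regions stood in the same stretch between neighbouring genes. The stretch between Sgms1, a sphingomyelin synthase gene, and Minpp1, an inositol phosphate phosphatase gene, on chromosome 19 held 4, and that between Gask1b and Gria2, a glutamate receptor gene, on chromosome 3 held 4. Another 11 stretches held 3 each. One of these, named after the values were seen, lay between Fads2 and Fads1, which encode fatty acid desaturases. By gene, Sgms1, B4galt5, Gask1b and Abt1 had 4 regions within 50 kb each, the most of any gene. B4galt5 encodes a galactosyltransferase. Calcoco1 had 3, as did 17 other genes. These regions share their neighbourhood and are not independent of each other.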
